A study of Homo sapiens with 16 samples.

Results

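The erastin response of WDR76-overexpressing HT-1080 cells (oeWDR76) was compared, gene by gene, with that of cells labelled siNS, taken here as the siRNA control. The quantity described throughout is a difference of differences on the scale of log2(FPKM + 1): the change from oeWDR76 to oeWDR76/Erastin, minus the change from siNS to siNS/Erastin. FPKM is the number of fragments scaled to transcript length and to all mapped fragments. The genes tested were not chosen by outcome: 17552 genes had values, and the 11260 that averaged at least 1 FPKM were tested. The comparison and the gene lists used below were chosen with earlier results of these data known. Of the series' 16 samples, 8 libraries enter the comparison, 2 in each of 4 groups: siNS, siNS/Erastin, oeWDR76 and oeWDR76/Erastin. HT-1080, a human fibrosarcoma, is an established line, and all groups were grown in DMEM with serum and, where treated, given 10 µM erastin for 24 h. A treatment tag marks the libraries named /Erastin alone, while the protocol text on erastin stands with every sample. Tag and name therefore decide here which libraries count as treated. The other 8 libraries (siDCAF8 and siDCAF8+siLSH, each without and with erastin) entered the fit and are used at the end. No empty-vector group accompanies oeWDR76, its control here received an siRNA, and nothing used here says how WDR76 was overexpressed or whether the cells are 1 clone. The labels do not state that a group's 2 libraries were separate cultures, so the p-values measure the spread between these libraries, which may be technical.

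Erastin blocks system xc-, the antiporter of SLC7A11 and SLC3A2 that brings cystine into the cell in exchange for glutamate. Cystine is the usual source of cysteine for glutathione, which GPX4 consumes to reduce lipid peroxides, and cells that lose this defence can die by ferroptosis, in which iron feeds the spread of lipid peroxides. Cells short of cystine are known to respond through NRF2, a factor for antioxidant and iron-handling genes that KEAP1 holds back, and through ATF4, which serves amino acid supply. WDR76 is a WD40-repeat protein that has been described as a substrate receptor of CRL4 ubiquitin ligases, as DCAF8 has, and LSH is a chromatin remodeller encoded by HELLS.

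WDR76 RNA stood at 3.52 and 2.89 FPKM in siNS, 2.92 and 3.68 in siNS/Erastin, 268 and 267 in oeWDR76 and 324 and 242 in oeWDR76/Erastin, so every overexpressing library lay far above every control library. The erastin response of WDR76 itself did not pass the test in either background, nor did its difference between them (log2 0.03, SE 0.15, adjusted p = 0.914 by limma with Benjamini-Hochberg adjustment), and the same held for the difference at DCAF8 (adjusted p = 0.692) and HELLS (0.307). Summed FPKM ran from 449181 to 453564 in the siNS and siNS/Erastin libraries and from 495857 to 503867 in the 4 oeWDR76 libraries, and the 2 libraries of each group correlated at Pearson's r of 0.9964 to 0.9971. Mesenchymal markers of a fibrosarcoma line were present (9 of 10 at a mean of at least 1 FPKM, all but THY1), with summed levels of 5641 to 5718 FPKM in siNS, 4190 to 4356 in siNS/Erastin, 5114 to 5185 in oeWDR76 and 4919 to 5102 in oeWDR76/Erastin. Epithelial markers summed to at most 6.19 FPKM in these libraries and endothelial ones to at most 6.62. The leukocyte list summed to 122 to 133 FPKM in siNS, 107 to 118 in siNS/Erastin, 177 to 183 in oeWDR76 and 178 in oeWDR76/Erastin. Of its 9 measured members, 6 averaged 1 FPKM or more over all 16 libraries (PTPRC, CD3E, CD3D, LYZ, CSF1R and CD68). GC content and transcript length together accounted for 18.7% of the variance of the untreated difference between oeWDR76 and siNS, and for 3.55% of the variance of the difference of erastin responses.

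**Figure D1:**
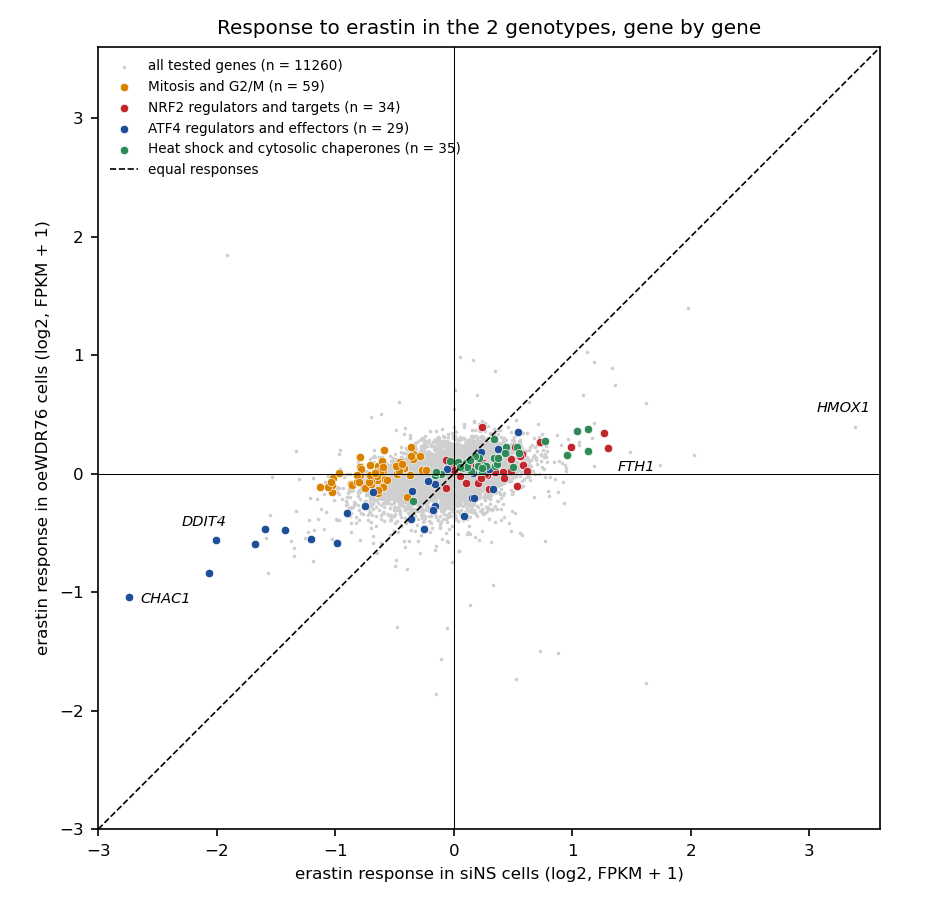
Erastin response (log2 change of FPKM + 1, with minus without erastin) of each of the 11260 tested genes in siNS cells (x axis) and oeWDR76 cells (y axis), with 4 gene lists coloured. Most coloured points lie nearer to 0 on the y axis than on the x axis: HMOX1 moved by 3.39 in siNS and 0.40 in oeWDR76, and CHAC1 by -2.74 and -1.04.

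Erastin moved fewer genes, and moved them less, in the WDR76-overexpressing libraries than in the control libraries. Among the 11260 genes tested, erastin raised 1704 in siNS (15.1%) and lowered 2519 (22.4%), against 53 raised (0.471%) and 110 lowered (0.977%) in oeWDR76, where a called gene has an adjusted p under 0.05. The standard deviation of the response over all tested genes was 0.276 in siNS and 0.138 in oeWDR76. The difference of responses itself was called for 1593 genes (14.1%), of which 1018 were higher in oeWDR76 (9.04%, so less lowered, or more raised, than in siNS) and 575 were lower (5.11%). Of these, 36 genes differed by more than 2-fold, 20 higher and 16 lower, a count that was 73 with a pseudocount of 0.1 and 21 with a filter of 5 FPKM. The median difference over all tested genes was 0.04. The split of 63.9% higher depends on the scaling, and was 50.5% under median-ratio and 49% under quantile scaling. Without any 1 of the 8 libraries the count fell to 906 to 1313, and 7 of the 8 (all but siNS/Erastin replicate 2) moved it by over 1.5 times, down to 906 to 988. Every one of the 1593 genes kept its sign in each of those 8 fits. The genes were chosen by their call in these same libraries, so a kept sign is no separate check. The 163 calls in oeWDR76 fell to 27 to 39 without any 1 of its 4 libraries, and the 4223 calls in siNS fell to 2796 without siNS replicate 2.

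The 2 responses share no library, so they can be set against each other gene by gene. Over the 11260 genes they correlated at Pearson's r of 0.35 and Spearman's rho of 0.37, a description across genes, which are not independent replicates. The 1704 genes that rose in siNS had a median response of 0.30 there and of 0.07 in oeWDR76, and 1295 of them had a positive response in oeWDR76. The 2519 genes that fell in siNS had a median of -0.34 there and -0.05 in oeWDR76, and 1738 of them were negative in oeWDR76. Among genes called past 2-fold in siNS, 19 rises had medians of 1.18 in siNS and 0.34 in oeWDR76, all 19 positive there, and 47 falls had medians of -1.18 and -0.30, 45 of them negative (66 genes in all, and 127 with a pseudocount of 0.1). Genes chosen by their siNS response carry the larger siNS value in part by that choice. In the other direction, the 53 genes that rose in oeWDR76 had medians of 0.32 in both backgrounds, and the 110 that fell had -0.34 in siNS and -0.44 in oeWDR76. Called in both backgrounds in the same direction were 105 genes, which is 64.4% of the oeWDR76 calls and 2.49% of the siNS calls. In bulk RNA, fewer cells of a kind and less RNA per cell cannot be told apart, here and below.

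Iron storage genes and part of the NRF2 targets rose with erastin in control cells and responded less in oeWDR76 cells. HMOX1, which opens heme and releases its iron (gene 3162, chr22:35381067-35394214 on GRCh38), had the most negative difference of all called genes other than SSX2B, whose reads may be shared with its near-identical copy SSX2. HMOX1 stood at 14.4 and 15.1 FPKM in siNS and at 111 and 241 in siNS/Erastin, against 16.7 and 16.4 in oeWDR76 and 20.3 and 24.1 in oeWDR76/Erastin. The siNS/Erastin libraries lay above all the others and differed most from each other, and the oeWDR76/Erastin values lay above both oeWDR76 values. The difference of responses was -2.99 (SE 0.42, adjusted p = 0.000373 by limma), and it ran from -3.55 to -2.44 over the alternatives tried, all called. FTH1, the ferritin heavy chain that stores iron (gene 2495, chr11:61964285-61967660), stood at 987 and 989 FPKM in siNS, 2618 and 2951 in siNS/Erastin, 1028 and 977 in oeWDR76 and 1114 and 1168 in oeWDR76/Erastin. Its basal levels overlapped between the backgrounds, its ratio with to without erastin (of FPKM + 1, as for every fold here) was 2.81 in siNS and 1.14 in oeWDR76, the latter not called (adjusted p = 0.412), and the difference was -1.30 (SE 0.13, adjusted p = 6.31e-05). FTL, the ferritin light chain, differed in the same direction by -0.52 (SE 0.09, adjusted p = 0.00156). Of the 9 tested genes of heme breakdown and iron storage, 3 were lower (HMOX1, FTH1 and FTL) and 1 was higher, a call lost without any 1 library except oeWDR76 replicate 1. These are 33.3% and 11.1%, where 5.11% and 9.04% of all tested genes were called lower and higher. Of the 13 genes of iron uptake, export and sensing 1 was called in each direction (7.69% each). The higher call, of STEAP3, was lost without any 1 library. It was also lost with no filter on low values, both other scalings and a replicate block. The lower call, of SLC11A2, was lost without siNS replicate 2, siNS/Erastin replicate 1, oeWDR76 replicate 2 or oeWDR76/Erastin replicate 1 or 2.

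**Figure D2:**
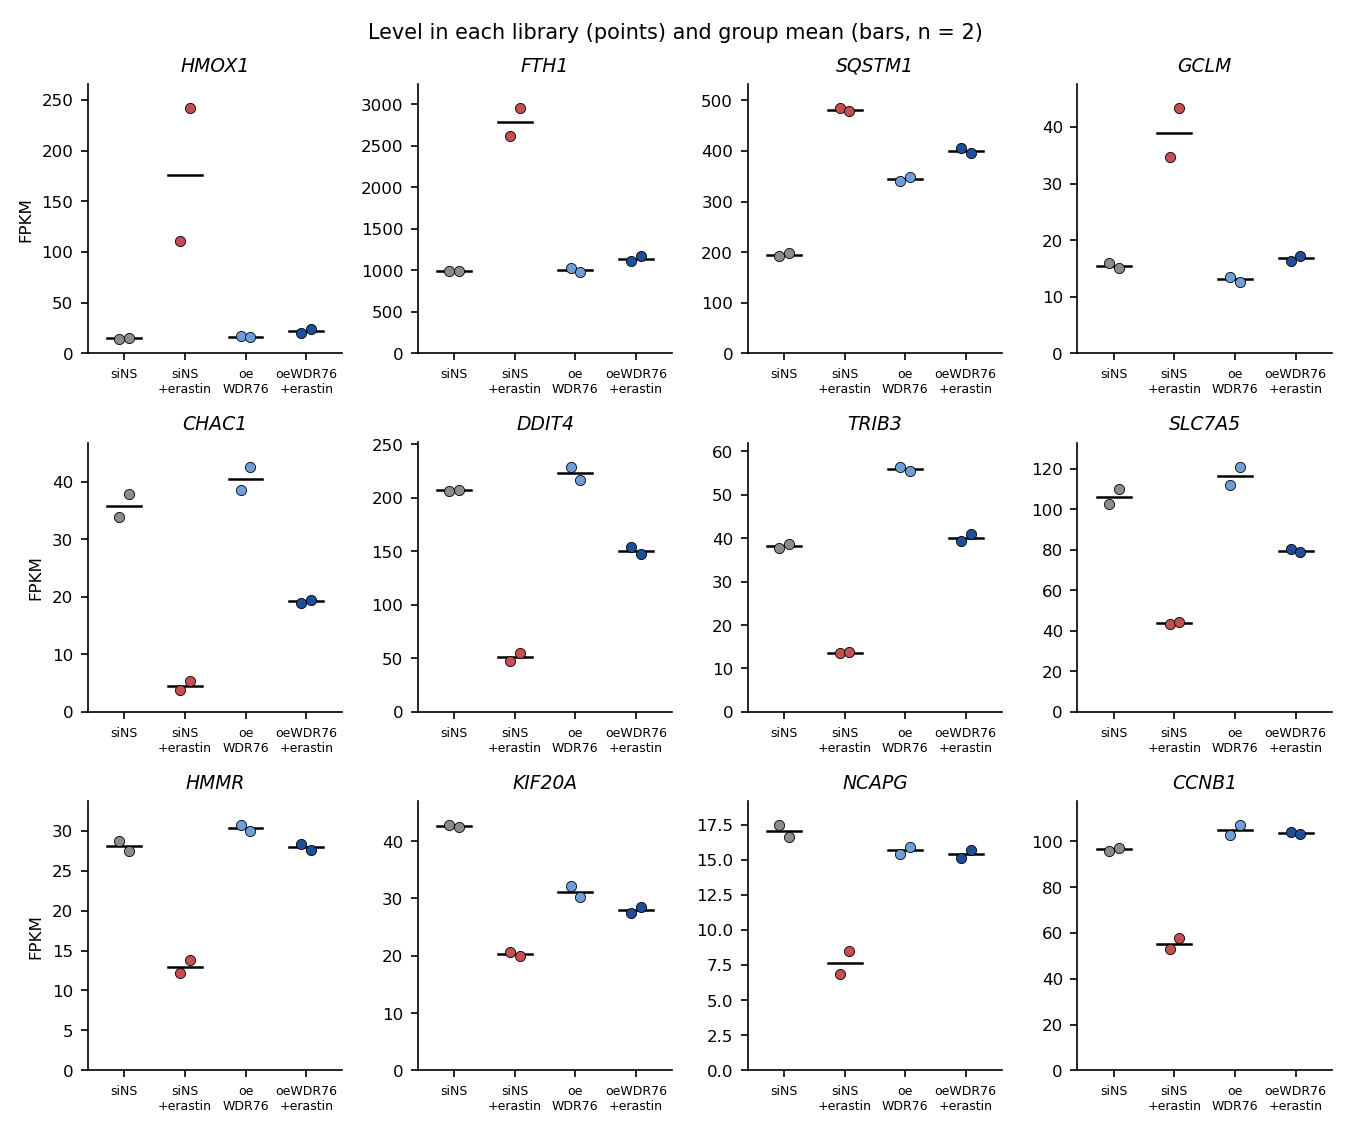
FPKM of 12 genes in each library (points) and the mean of each group (horizontal lines, n = 2) for siNS, siNS/Erastin, oeWDR76 and oeWDR76/Erastin; all y axes start at 0. In the top row the siNS/Erastin libraries are the highest, in the middle and bottom rows they are the lowest, as with CHAC1 at 3.71 and 5.41 FPKM.

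Of 34 tested NRF2 regulators and targets, 12 responded less in oeWDR76 (35.3%, against 5.11% of all tested genes called lower) and 0 more (against 9.04% called higher). Their median difference was -0.29. The same list had 20 rises (58.8%, against 15.1% of all tested genes) and 0 falls (against 22.4%) with erastin in siNS (median 0.27). It had no called gene in oeWDR76 by limma (median 0.07), where 0.471% of all tested genes rose and 0.977% fell. There 10 of the 34 members had an unadjusted p under 0.05 by limma, against 1527 of the 11260 tested genes. Without erastin 15 members were higher in oeWDR76 than in siNS and 12 were lower, where 41.6% and 32% of all tested genes were. SQSTM1, an autophagy receptor that binds KEAP1, stood at 192 and 198 FPKM in siNS, 484 and 479 in siNS/Erastin, 341 and 349 in oeWDR76 and 405 and 395 in oeWDR76/Erastin. It was thus already higher in oeWDR76 before erastin, stood with erastin below the siNS/Erastin level (a change of 0.21 that was not called, adjusted p = 0.197), and its responses differed by -1.09 (SE 0.10, adjusted p = 5.68e-05). GCLM, the modifier subunit of glutamate-cysteine ligase, rose from 15.97 and 14.99 FPKM to 34.6 and 43.3 in siNS and went from 13.4 and 12.7 to 16.4 and 17.2 in oeWDR76, a difference of -0.93 (SE 0.13, adjusted p = 0.000417). TXNRD1, the thioredoxin reductase of the cytosol, rose from 76.5 and 74.7 to 137 and 167 FPKM in siNS and went from 62.03 and 64.9 to 77.7 and 70.9 in oeWDR76 (difference -0.77, SE 0.13, adjusted p = 0.00139). Both erastin groups of GCLM and TXNRD1 lay above their untreated groups in both backgrounds without overlap, and the siNS/Erastin libraries lay above all others. ME1, a malic enzyme that makes NADPH, differed by -0.52 (adjusted p = 0.00201). NQO1, a quinone reductase often used as a marker of NRF2 and named here after its values were seen, rose in siNS (0.52, adjusted p = 9.95e-05), and its difference of -0.29 did not pass the test (adjusted p = 0.0886), but did with only the 8 libraries compared (adjusted p = 0.0371, range over the alternatives 0.0371 to 0.271).

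NRF2 with a small MAF protein is known to bind antioxidant response elements, whose core reads TGACNNNGC, where N is any base. Among 34 NRF2 list members, 25 had a RefSeq promoter (250 bases before to 50 after the start site, GRCh38.p14), and 7 of these (28%) held the core on either strand, against 15.3% of the 9283 tested genes with a promoter. The share was 33.3% in the amino acid transporter list and 29.4% in that of system xc-, cysteine and glutathione. The 7 members with a match had a median difference of -0.52 and 5 were called lower, and the 18 without one had -0.17 and 3. Among all 1420 tested genes with the core, 6.27% were lower and 8.66% higher, against 4.88% and 9.08% of the 9283. Their median difference was 0.02, against 0.04. The upstream 250 bases of GCLM (chr1:93909431-93909680, minus strand) and TXNRD1 (chr12:104215529-104215778, plus strand) are shown because both carry a match and both differed between the backgrounds. Capitals mark the match, whose first base lies at position -34 from the start site in GCLM and -99 in TXNRD1, and the capitals that end the TXNRD1 stretch belong to a match that runs on past the start site.
GCLM: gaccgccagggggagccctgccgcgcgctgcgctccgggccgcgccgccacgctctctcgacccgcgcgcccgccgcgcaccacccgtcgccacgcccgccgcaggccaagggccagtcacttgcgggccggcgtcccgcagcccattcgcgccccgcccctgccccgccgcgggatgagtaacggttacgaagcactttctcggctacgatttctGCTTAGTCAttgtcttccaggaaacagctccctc
TXNRD1: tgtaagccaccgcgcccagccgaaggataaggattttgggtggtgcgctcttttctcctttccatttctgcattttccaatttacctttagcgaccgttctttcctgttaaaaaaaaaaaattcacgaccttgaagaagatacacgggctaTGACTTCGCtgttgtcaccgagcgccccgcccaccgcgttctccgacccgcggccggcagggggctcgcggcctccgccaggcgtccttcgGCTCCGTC
A match to these letters is a description of the sequence and does not show that NRF2 binds there.

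Heat shock and chaperone genes rose with erastin in siNS, and part of them rose less in oeWDR76. Of 35 tested chaperone genes, 23 rose (65.7%, against 15.1% of all tested genes) and 3 fell (8.57%, against 22.4%) with erastin in siNS (median 0.24). In oeWDR76 3 rose (8.57%, against 0.471%) and 0 fell (against 0.977%), with a median of 0.09. By the difference 9 were lower (25.7%, against 5.11%) and 0 higher (against 9.04%), with a median of -0.19. The count of 9 moved to 14 or 15 under 5 alternatives (both other scalings, only the 8 libraries compared, and the GC and length correction without and with a replicate block) and to 5 without oeWDR76/Erastin replicate 2. Untreated oeWDR76 cells already had more of these transcripts, with 26 higher and 2 lower than in siNS (74.3% and 5.71%, against 41.6% and 32% of all tested genes, median 0.39). HSPB8, a small heat shock protein that works with BAG3 in autophagy of misfolded proteins, is an exception, since its basal levels overlapped: 20.7 and 20.5 FPKM in siNS and 20.2 and 20.8 in oeWDR76. With erastin HSPB8 reached 48.8 and 44.2 FPKM in siNS and 24.4 and 22.6 in oeWDR76, a difference of -0.95 (SE 0.10, adjusted p = 6.31e-05). HSPH1, a nucleotide exchange factor of HSP70, rose from 17.5 and 15.9 to 32.5 and 34.1 FPKM in siNS and went from 24.6 and 25.4 to 28.1 and 27.9 in oeWDR76 (difference -0.80, adjusted p = 0.000113). DNAJB1, a J-domain partner of HSP70, differed by -0.45 (adjusted p = 0.00145), and its level in untreated oeWDR76, 49.5 and 53.7 FPKM, was above that of siNS/Erastin, 37.5 and 35.8. The palindromic pair of heat shock elements, GAANNTTC, lay in 9 of 31 promoters of the list (29%), against 4.58% of tested genes. Those 9 had a median difference of -0.31 with 4 called, and the other 22 had -0.17 with 4 called. Among all 425 tested genes with the pair, 6.59% were lower and 9.88% higher, against 4.88% and 9.08% of the 9283 tested genes with a promoter. HSPB8 is shown because it had the largest difference in the list, with its match in capitals at position -88 (chr12:119178681-119178930, plus strand).
HSPB8: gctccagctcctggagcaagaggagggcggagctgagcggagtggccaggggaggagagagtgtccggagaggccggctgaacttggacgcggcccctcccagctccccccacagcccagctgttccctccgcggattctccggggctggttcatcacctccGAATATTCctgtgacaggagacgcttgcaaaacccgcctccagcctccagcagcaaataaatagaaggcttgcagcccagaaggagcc

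In the endoplasmic reticulum, 5 of 26 genes of the unfolded protein response were lower by the difference (19.2%, against 5.11% of all tested genes) and 0 were higher (against 9.04%). HSPA5, the chaperone BiP, stood at 261 and 254 FPKM in siNS, 519.6 and 396 in siNS/Erastin, 318 and 365 in oeWDR76 and 321 and 346 in oeWDR76/Erastin. Its siNS/Erastin libraries lay above all others and its oeWDR76 groups overlapped (difference -0.84, SE 0.13, adjusted p = 0.000831). HERPUD1, a membrane protein of ER-associated degradation, differed by -0.68 (adjusted p = 0.00665). The count of 5 fell to 3 without siNS/Erastin replicate 1 and to 2 without siNS replicate 2, oeWDR76 replicate 2 or oeWDR76/Erastin replicate 1.

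The ATF4 genes with the steepest falls under erastin in siNS fell less in oeWDR76. The siNS fall enters the difference, so naming genes by that fall accounts for part of it. CHAC1, a gamma-glutamyl cyclotransferase that degrades glutathione (gene 79094, chr15:40953149-40956519), stood at 33.8 and 37.9 FPKM in siNS, 3.71 and 5.41 in siNS/Erastin, 38.5 and 42.6 in oeWDR76 and 18.99 and 19.4 in oeWDR76/Erastin. Both untreated groups lay above both treated ones, and the change was -2.74 in siNS (adjusted p = 3.75e-09) and -1.04 in oeWDR76 (adjusted p = 0.00153). The difference of 1.70 (SE 0.20, adjusted p = 0.000118) ran from 1.48 to 1.93 over the alternatives, all called. DDIT4, an inhibitor of mTORC1, fell from 207 and 207 to 47.3 and 54.6 FPKM in siNS and from 229 and 217 to 154 and 147 in oeWDR76 (difference 1.44, SE 0.18, adjusted p = 0.000151). TRIB3, a pseudokinase that feeds back on ATF4, fell from 37.8 and 38.8 to 13.5 and 13.8 FPKM in siNS and from 56.4 and 55.5 to 39.3 and 40.9 in oeWDR76, and its level in oeWDR76/Erastin lay above that of untreated siNS (difference 0.95, adjusted p = 0.000286). JDP2, a bZIP repressor of AP-1 sites, INHBE, an activin subunit, and SESN2, a leucine sensor upstream of mTORC1, differed by 1.13, 1.22 and 0.65 (adjusted p = 0.000131, 0.00076 and 0.00307). TXNIP, an arrestin that binds thioredoxin and lowers glucose uptake, fell from 231 and 216 to 76.4 and 62.8 FPKM in siNS, and from only 38.5 and 25.6 to 21.4 and 19.7 in oeWDR76. Its difference of 1.08 (adjusted p = 0.00135) thus set a fall in siNS against a gene already lower in untreated oeWDR76 than in siNS/Erastin.

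The ATF4 list as a whole shows how far the members part. Of 29 tested regulators and effectors, 10 were higher by the difference (34.5%, against 9.04% of all tested genes) and 4 lower (13.8%, against 5.11%). The list's median of 0.07 lies near the 0.04 of all genes. Erastin raised 8 of the 29 (27.6%, against 15.1% of all tested genes) and lowered 14 (48.3%, against 22.4%) in siNS, with a median of -0.22. In oeWDR76 it raised 0 and lowered 11 (37.9%, against 0.977%), with a median of -0.27. The list's median was thus lower in oeWDR76 while its steepest members fell less there. Its count of 4 lower members fell to 2 with no filter on low values, to 2 without siNS replicate 1 or oeWDR76/Erastin replicate 2 and to 1 without siNS/Erastin replicate 1 or oeWDR76 replicate 1. ATF4 itself and ASNS, the asparagine synthetase, both named after their values were seen, had differences of -0.12 (adjusted p = 0.417) and -0.24 (adjusted p = 0.411), neither called. ATF4 stood at 398 and 418 FPKM in siNS, 367 and 364 in siNS/Erastin, 546 and 568 in oeWDR76 and 455 and 465 in oeWDR76/Erastin, so its RNA did not show the pattern of CHAC1.

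Genes that make and carry amino acids, many of them known ATF4 targets, had called members that were higher and none that were lower. The synthetases that charge tRNAs were called at a share near that of all genes. Of 23 genes of serine, asparagine, proline and one-carbon synthesis, 7 were higher (30.4%) and 0 lower, and of 18 amino acid transporters 5 (27.8%) and 0. GPT2, the mitochondrial alanine transaminase, fell from 16.5 and 16.1 to 4.35 and 5.21 FPKM in siNS and from 23.3 and 25.3 to 16.4 and 16.3 in oeWDR76 (difference 1.04, SE 0.16, adjusted p = 0.000803). PCK2, the mitochondrial phosphoenolpyruvate carboxykinase, differed by 0.83 (adjusted p = 0.00233). SLC7A5, the light chain of the leucine carrier LAT1, fell from 102 and 110.2 to 43.3 and 44.6 FPKM in siNS and from 112 and 121 to 80.2 and 78.9 in oeWDR76 (difference 0.71, SE 0.14, adjusted p = 0.00432). For these genes all untreated libraries lay above the treated ones of their own background. The count of 7 fell to 3 without siNS/Erastin replicate 1, and the count of 5 transporters fell to 3 with no filter on low values and to 2 or 3 without siNS replicate 1 or 2, siNS/Erastin replicate 1 or 2, oeWDR76 replicate 1 or oeWDR76/Erastin replicate 2. Of 22 aminoacyl-tRNA synthetases, 3 were higher (13.6%, against 9.04% of all tested genes), among them AARS1 (0.64, adjusted p = 0.000514) and CARS1 (0.52, adjusted p = 0.000901), which charge alanine and cysteine. One was lower (4.55%, against 5.11%), WARS1 for tryptophan (-0.61, adjusted p = 0.00581), an enzyme that is also induced by interferon.

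ATF4 paired with a C/EBP protein is known to bind a composite element, and the letters TTGCATCA are one form of it. They lay in 6 of 18 promoters of the synthetase list (33.3%; AARS1, CARS1, IARS1, MARS1, NARS1 and TARS1) and in 1 of 24 of the ATF4 list (4.17%; CHAC1), against 0.496% of the 9283 tested genes with a promoter. All 46 tested genes with a match had a median difference of 0.12, with 8 higher (17.4%) and 5 lower (10.9%), against 9.08% and 4.88% of the 9283. The promoters of CHAC1 (chr15:40953221-40953470, plus strand) and AARS1 (chr16:70289507-70289756, minus strand) are shown because each had the largest difference of its list, with the match in capitals at -209 and -187.
CHAC1: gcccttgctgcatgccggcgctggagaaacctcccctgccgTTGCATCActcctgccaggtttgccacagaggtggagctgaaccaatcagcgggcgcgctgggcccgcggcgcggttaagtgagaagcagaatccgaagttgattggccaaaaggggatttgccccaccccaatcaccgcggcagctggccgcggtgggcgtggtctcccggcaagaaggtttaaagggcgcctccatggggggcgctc
AARS1: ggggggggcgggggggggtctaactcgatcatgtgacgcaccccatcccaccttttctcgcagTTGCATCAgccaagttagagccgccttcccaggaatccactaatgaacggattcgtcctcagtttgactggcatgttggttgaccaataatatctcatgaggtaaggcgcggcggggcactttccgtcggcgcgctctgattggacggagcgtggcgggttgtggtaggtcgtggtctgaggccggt

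Neither SLC7A11 nor GPX4, at the centre of the route that erastin acts on, passed the test of the difference as fitted. SLC7A11, the target of erastin and named after its values were seen, stood at 5.86 and 5.43 FPKM in siNS, 2.02 and 2.69 in siNS/Erastin, 2.45 and 2.76 in oeWDR76 and 1.66 and 1.88 in oeWDR76/Erastin. It fell in siNS (-0.99, adjusted p = 0.000166), its fall in oeWDR76 was not called (-0.38, adjusted p = 0.301), and the difference of 0.61 was not called either (SE 0.23, adjusted p = 0.0821). With only the 8 libraries compared SLC7A11 was called (adjusted p = 0.0158), and over all alternatives its adjusted p ran from 0.0158 to 0.258. SLC3A2, the heavy chain of the same antiporter and of LAT1, did differ, by 0.53 (adjusted p = 0.000784). GPX4, also named after its values were seen, stood at 118 and 126 FPKM in siNS, 144 and 135 in siNS/Erastin, 188 and 187 in oeWDR76 and 215 and 212 in oeWDR76/Erastin, with responses that differed by -0.01 (SE 0.07, adjusted p = 0.971). Of 22 genes of system xc-, cysteine and glutathione 5 were higher (22.7%) and 4 lower (18.2%), with CHAC1 and GCLM at the ends. Of 28 genes of GPX4 and other ferroptosis defences 4 were higher and 4 lower (14.3% each). For all tested genes the shares were 9.04% and 5.11%, and the medians of these lists, 0.03 and -0.02, lay near their 0.04. The first count of 5 fell to 3 with no filter on low values and without any 1 of the libraries other than siNS/Erastin replicate 2 and oeWDR76/Erastin replicate 1, and the counts of 4 fell to 1 or 2 without siNS replicate 2 (lower only), siNS/Erastin replicate 1, oeWDR76 replicate 2 or oeWDR76/Erastin replicate 1. SAT1, the spermidine acetyltransferase counted among lipid drivers of ferroptosis, rose from 113 and 115 to 245 and 232 FPKM in siNS and went from 58.2 and 50.05 to 62.3 and 68.1 in oeWDR76 (difference -0.79, adjusted p = 0.00177). Of that list of 22 genes, 3 were lower (13.6%) and 0 higher, and 1 was lower without siNS replicate 2, siNS/Erastin replicate 1 or oeWDR76 replicate 2.

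Mitotic genes formed the list with the most called members: nearly all fell with erastin in siNS, and none was called in oeWDR76. Of 59 tested genes of mitosis and G2/M, 54 were higher by the difference and 0 lower, with a median of 0.63, where 9.04% of all tested genes were called higher. Erastin lowered 58 of them in siNS (98.3%, against 22.4% of all tested genes, median -0.64). In oeWDR76 limma called none of them in either direction (median -0.01), where 0.471% of all tested genes rose and 0.977% fell. An unadjusted p under 0.05 by limma was found there at 5 of the 59, against 1527 of the 11260 tested genes. Left-out libraries and the other alternatives kept the count between 47 and 56 and the median between 0.59 and 0.66. Without erastin the backgrounds were mixed, with 24 members higher and 19 lower in oeWDR76 (40.7% and 32.2%, near the 41.6% and 32% of all tested genes, median 0.08). HMMR, a spindle-associated hyaluronan receptor, stood at 28.7 and 27.5 FPKM in siNS, 12.1 and 13.8 in siNS/Erastin, 30.7 and 29.9 in oeWDR76 and 28.3 and 27.6 in oeWDR76/Erastin (difference 0.95, SE 0.10, adjusted p = 6.31e-05). KIF20A, a kinesin of cytokinesis, stood at 42.7 and 42.4 FPKM in siNS, 20.6 and 19.99 in siNS/Erastin, 32.2 and 30.2 in oeWDR76 and 27.4 and 28.5 in oeWDR76/Erastin (difference 0.88, SE 0.09, adjusted p = 6.31e-05). In both, the siNS/Erastin libraries lay below all the others, and the fall in oeWDR76 was not called (adjusted p = 0.512 and 0.307). CENPE, a kinetochore motor, was lower in untreated oeWDR76, at 4.27 and 4.23 FPKM against 8.47 and 8.42 in siNS, and its siNS/Erastin values of 3.42 and 3.86 overlapped the 3.99 and 3.84 of oeWDR76/Erastin (difference 0.93, adjusted p = 7.53e-05). UBE2S, a ubiquitin-conjugating enzyme of the anaphase-promoting complex, differed by 0.69 (adjusted p = 0.000115). CCNB1, the mitotic cyclin B1, and PLK1, a mitotic kinase, both named after their values were seen, differed by 0.78 and 0.77 (adjusted p = 0.000172 and 0.000838). CCNB1 went from 95.8 and 97.2 to 53.05 and 57.7 FPKM in siNS and from 103 and 107 to 104 and 103 in oeWDR76. The 5 members that were not called were BUB3, CENPI, FAM83D, INCENP and MYBL2.

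Condensin, cohesin and kinetochore genes followed with 21 of 36 higher (58.3%, against 9.04% of all tested genes) and 0 lower (against 5.11%), with a median of 0.40. In siNS 28 fell (77.8%, against 22.4%) and 1 rose (2.78%, against 15.1%), with a median of -0.39. In oeWDR76 limma made no call (median 0.00), where 0.471% of all tested genes rose and 0.977% fell. An unadjusted p under 0.05 by limma was found there at 3 of the 36, against 1527 of the 11260 tested genes. NCAPG, a condensin I subunit, stood at 17.4 and 16.6 FPKM in siNS, 6.83 and 8.48 in siNS/Erastin, 15.4 and 15.9 in oeWDR76 and 15.1 and 15.7 in oeWDR76/Erastin, and its difference of 1.04 (SE 0.14, adjusted p = 0.000323) was the largest of both lists. SPDL1, which brings dynein to kinetochores, and SMC4, a condensin core subunit, differed by 0.91 and 0.57 (adjusted p = 0.000136 and 0.000854). Genes of G1/S and DNA replication did not share this: 6 of 58 were higher and 6 lower (10.3% each, against 9.04% and 5.11% of all tested genes). Their median of 0.04 was -0.03 with quantile normalization and 0.001 without siNS/Erastin replicate 1. Their main difference stood before erastin, since 55 were higher and 2 lower in untreated oeWDR76 than in siNS (94.8% and 3.45%, against 41.6% and 32% of all tested genes, median 1.08). TK1, the thymidine kinase of S phase, went from 32.3 and 34.9 to 23.5 and 20.9 FPKM in siNS and from 79.2 and 83.02 to 83.6 and 81.1 in oeWDR76 (difference 0.60, adjusted p = 0.000854). CDC25A, a phosphatase that activates CDK2, went the other way, from 2.43 and 2.82 to 5.81 and 6.12 FPKM in siNS and from 13.1 and 13.7 to 13.8 and 13.99 in oeWDR76 (difference -0.89, adjusted p = 0.001). The count of 6 higher G1/S members fell to 3 without oeWDR76 replicate 2 or oeWDR76/Erastin replicate 1.

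Promoters of mitotic genes are known for 2 elements, the cell cycle homology region, TTTGAA, which the DREAM complex and MYB-MuvB with FOXM1 use, and upstream CCAAT boxes, which NF-Y binds. On either strand, TTTGAA lay in 31 of 49 promoters of the mitosis list (63.3%) and 13 of 29 of the condensin and kinetochore list (44.8%), against 9.35% of 9283 tested genes and 15.4% of all 27305 promoters in the RefSeq table. CCAAT lay in 73.5% of the mitosis list and 37.1% of tested genes. Within the mitosis list the letters did not separate the response: the 31 with TTTGAA had a median difference of 0.65 with 30 called, and the 18 without it had 0.65 with 16 called. Across tested genes, those with both elements were called higher in 83 of 373 cases (22.3%). Outside the mitosis, G1/S and condensin lists, which this count includes, it was 55 of 340 (16.2%), where 8.47% of the 9158 genes with a promoter outside those lists were called higher. HMMR (chr5:163460382-163460631, plus strand) and NCAPG (chr4:17810729-17810978, plus strand) are shown for their responses above, with TTTGAA or its reverse complement in capitals, at -28 and -22 in HMMR and at -35 in NCAPG.
HMMR: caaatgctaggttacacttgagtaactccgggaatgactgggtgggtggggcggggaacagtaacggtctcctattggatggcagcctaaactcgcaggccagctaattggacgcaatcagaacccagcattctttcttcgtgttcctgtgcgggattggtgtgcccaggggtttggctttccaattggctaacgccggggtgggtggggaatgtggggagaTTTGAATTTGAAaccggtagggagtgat
NCAPG: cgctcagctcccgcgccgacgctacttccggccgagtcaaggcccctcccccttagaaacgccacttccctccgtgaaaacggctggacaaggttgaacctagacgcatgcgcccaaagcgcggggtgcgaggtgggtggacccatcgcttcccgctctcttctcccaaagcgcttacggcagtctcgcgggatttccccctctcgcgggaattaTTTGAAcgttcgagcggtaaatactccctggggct

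**Figure D3:**
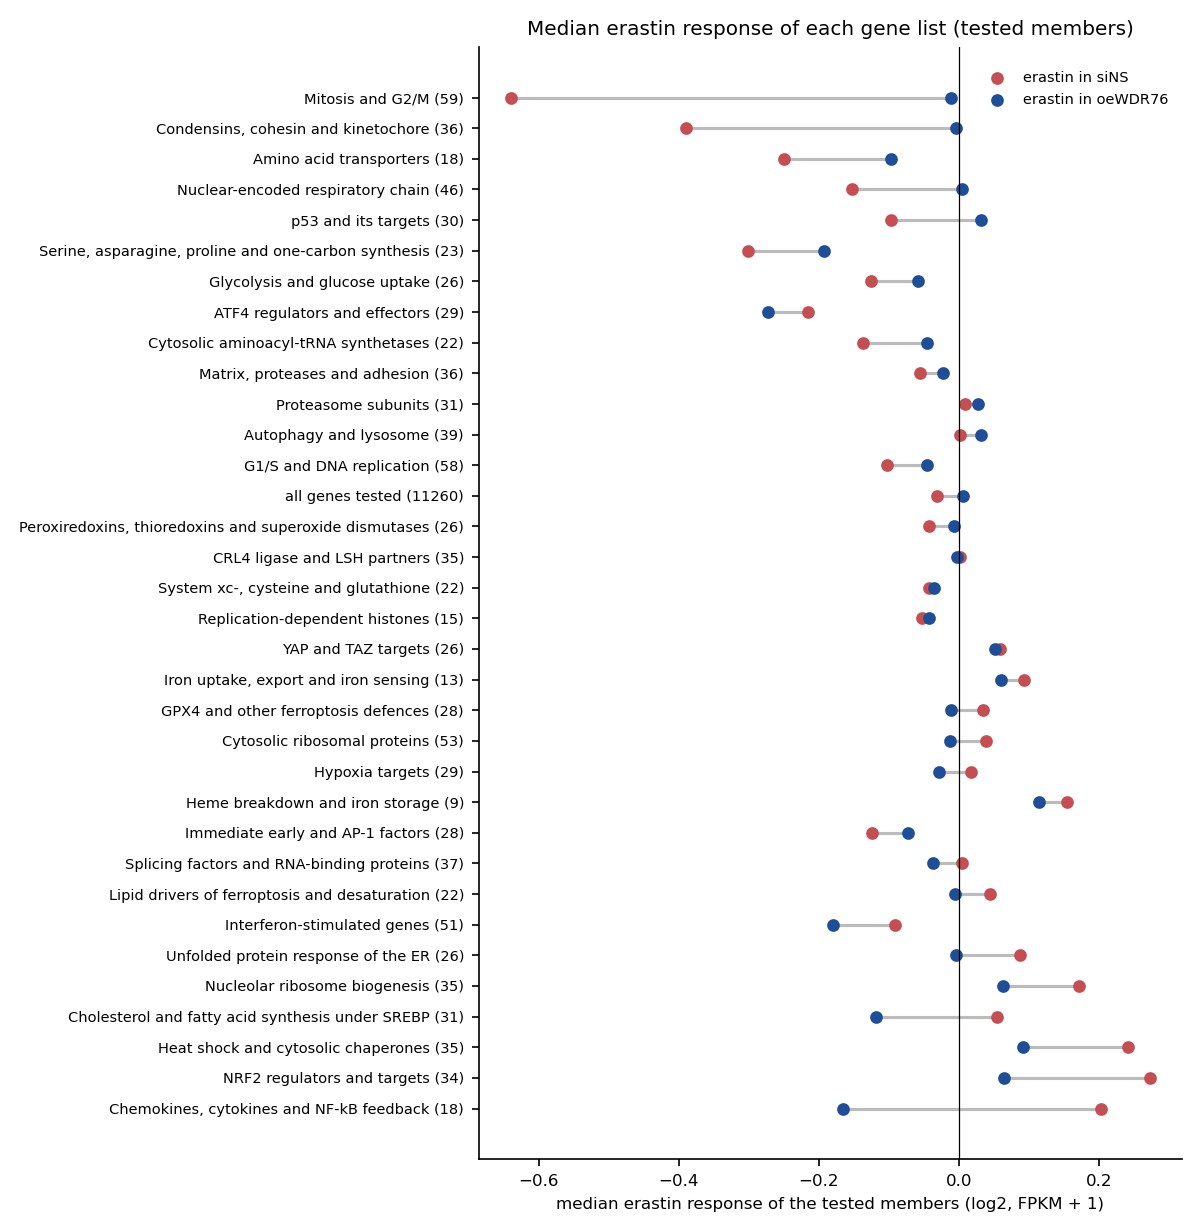
Median erastin response (log2 change of FPKM + 1) over the tested members of each gene list in siNS (red) and oeWDR76 (blue), ordered by the median difference, with the number of tested members in brackets. Mitosis and G2/M spans from -0.64 to -0.01, and all genes tested from -0.03 to 0.01.

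Several sterol synthesis genes rose with erastin in siNS, and none of the list was called higher in oeWDR76. Of 31 genes of cholesterol and fatty acid synthesis, 8 were lower by the difference (25.8%, against 5.11% of all tested genes) and 1 higher (3.23%, against 9.04%), with a median of -0.16. In siNS 11 rose (35.5%, against 15.1%) and 7 fell (22.6%, against 22.4%). In oeWDR76 0 rose and 3 fell (9.68%, against 0.977%). HMGCS1, which makes HMG-CoA, rose from 58.5 and 54.4 to 110.3 and 99.02 FPKM in siNS, but stood at 13.8 and 13.8 in oeWDR76 and 12.2 and 12.3 in oeWDR76/Erastin (difference -1.04, SE 0.18, adjusted p = 0.00157). INSIG1, which holds SREBP precursors in the ER, went from 38.1 and 35.8 to 72.9 and 58.03 FPKM and from 24.7 and 24.3 to 21.1 and 21.6 (difference -0.99, adjusted p = 0.00103). Both were lower in untreated oeWDR76 than in siNS, as were 21 of the 31 genes, with 6 higher (67.7% and 19.4%, against 32% and 41.6% of all tested genes). The count of 8 fell to 3 with no filter on low values, was 12 with only the 8 libraries compared, and fell to 3 to 5 without any 1 of the 8 libraries except siNS/Erastin replicate 2 and oeWDR76 replicate 1. The 1 higher call was lost without any 1 library except siNS/Erastin replicate 2, oeWDR76 replicate 2 and oeWDR76/Erastin replicate 1, and the median was -0.06 without siNS/Erastin replicate 1.

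Among secreted and signalling factors, of 18 chemokines, cytokines and NF-kB feedback genes 6 were lower and 1 higher, with a median of -0.46 (siNS 0.20, oeWDR76 -0.17). These are 33.3% and 5.56%, against 5.11% and 9.04% of all tested genes. The median was -0.21 with no filter on low values and -0.60 with a pseudocount of 0.1, and the 1 higher call was lost without any 1 library except siNS replicate 2 and oeWDR76/Erastin replicate 1. LIF, a cytokine of the interleukin 6 family, and CSF1, the macrophage growth factor, were among the lower ones, at -0.69 and -0.52 (adjusted p = 0.000502 and 0.00361). JMJD6, a JmjC-domain hydroxylase, had one of the smallest adjusted p-values (5.68e-05): it went from 15.9 and 16.6 to 34.8 and 35 FPKM in siNS and from 20.3 and 19.1 to 23.6 and 23.4 in oeWDR76 (difference -0.81). CCN1, a matricellular YAP target, differed by -0.86 (adjusted p = 0.00125).

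Only 5 genes were called in opposite directions by erastin in the 2 backgrounds, which is 3.07% of the oeWDR76 calls and 0.118% of the siNS calls. TNFAIP3, the A20 ubiquitin editor that restrains NF-kB, rose from 5.31 and 5.81 to 8.03 and 8.08 FPKM in siNS and fell from 12.8 and 12.8 to 9.07 and 9.55 in oeWDR76 (difference -0.89, SE 0.11, adjusted p = 0.000136). NDRG1, a stress and hypoxia gene, rose from 144 and 147 to 189 and 173 FPKM and fell from 215 and 173 to 133 and 125 (difference -0.90, adjusted p = 0.000376). PARP14, an interferon-inducible ADP-ribosyltransferase, rose from 10.3 and 9.87 to 11.6 and 12.3 FPKM and fell from 26.8 and 26.9 to 21.3 and 21.4 (difference -0.54, adjusted p = 0.00116). In none of the 3 did the treated libraries overlap the untreated ones of their background. RGS3, a regulator of G protein signalling, followed them with -0.71 (adjusted p = 0.00041), and ALG1L2 fell in siNS and rose in oeWDR76 (1.18, adjusted p = 0.000136), though its reads may be shared with related ALG1 copies.

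**Figure D4:**
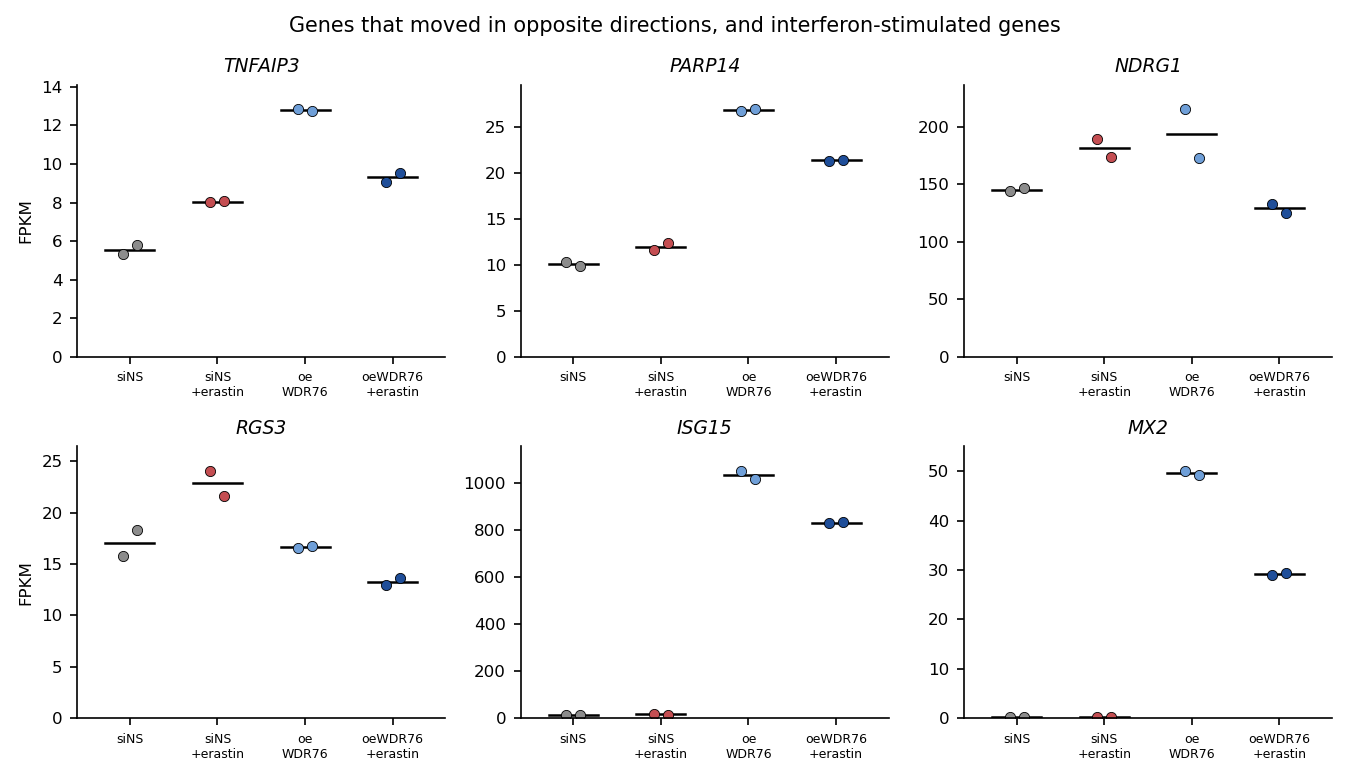
FPKM in each library (points) and group means (horizontal lines, n = 2) for 4 genes that erastin moved in opposite directions and for 2 interferon-stimulated genes; all y axes start at 0. TNFAIP3 rises between the 2 siNS groups and falls between the 2 oeWDR76 groups, and MX2 is at most 0.31 FPKM in siNS and siNS/Erastin libraries.

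PARP14 belongs to a list whose level differed far more between the backgrounds than with erastin. All 51 of 51 tested interferon-stimulated genes were higher in untreated oeWDR76 than in siNS, where 41.6% of all tested genes were, with a median of 2.05. With erastin 9 fell (17.6%, against 0.977% of all tested genes) and 0 rose in oeWDR76 (median -0.18). In siNS 15 fell (29.4%, against 22.4%) and 7 rose (13.7%, against 15.1%), with a median of -0.09. By the difference 12 were lower (23.5%, against 5.11%) and 0 higher (against 9.04%). ISG15, a ubiquitin-like modifier, went from 12.5 and 14.4 to 17.1 and 15.9 FPKM in siNS and from 1054 and 1018 to 829.98 and 837 in oeWDR76 (difference -0.59, SE 0.12, adjusted p = 0.0052). OAS2, a sensor of double-stranded RNA, went from 6.38 and 5.95 to 6.83 and 6.65 FPKM in siNS and from 132 and 120.3 to 98.4 and 93.9 in oeWDR76 (difference -0.50, adjusted p = 0.00283). MX2, an interferon-induced GTPase, was near 0 in siNS (0.27 and 0.25 FPKM) and siNS/Erastin (0.18 and 0.31), and fell from 50.1 and 49.2 to 29 and 29.4 FPKM in oeWDR76. For MX2 the difference of -0.73 (adjusted p = 0.0012) is therefore the fall in oeWDR76 alone, and with a pseudocount of 0.1 it was not called (adjusted p = 0.231).

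The remaining large differences were in genes of low level or of no common list. RANBP3L and LRRC17 fell in siNS, from 3.35 and 3.28 to 0.88 and 0.63 and from 5.46 and 5.25 to 2.27 and 1.83 FPKM, and stood below 1 FPKM in all 4 oeWDR76 libraries, so their differences of 1.25 and 1.05 (adjusted p = 0.000194 and 0.0025) rested on the fall in siNS. MXD3, a MAX partner and transcriptional repressor, went from 14.1 and 14.8 to 6.46 and 6.09 FPKM in siNS and from 17.4 and 14.5 to 14.9 and 15.3 in oeWDR76 (difference 1.02, adjusted p = 0.000221). GMFG, a regulator of actin branching, differed by 1.15 (adjusted p = 0.00201), with oeWDR76 groups that overlapped. DEPP1, a FOXO-induced gene, differed mainly through its change in oeWDR76. It stood at 1.72 and 2.67 FPKM in siNS and 2.24 and 2.72 in siNS/Erastin, which overlapped. In oeWDR76 it fell from 4.84 and 3.68 to 1.34 and 1.51 (difference -1.25, SE 0.21, adjusted p = 0.00129). S100P, a calcium-binding protein, rose from 1.32 and 1.08 to 5.63 and 7.14 FPKM in siNS and was at or below 0.25 FPKM in all oeWDR76 libraries (difference -1.67, adjusted p = 0.00046, and 0.0675 with a pseudocount of 0.1). PRG2, NRSN1, ALOX5AP and SPNS3, at -1.34, -1.27, -1.18 and -1.09 (adjusted p = 0.000514, 0.00418, 0.00224 and 0.00686), stood below 10 FPKM in all 8 libraries.

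In the lists left, shares called can be read against the 9.04% of all tested genes called higher and the 5.11% called lower. Immediate early and AP-1 factors had 7 of 28 lower (25%) and 4 higher (14.3%). Of 30 p53 targets, 6 were higher (20%) and 3 lower (10%). YAP and TAZ targets had 5 of 26 lower (19.2%) and 1 higher, which became 5 higher with the GC and length correction. Matrix and adhesion genes had 6 of 36 higher (16.7%) and 1 lower. Nucleolar ribosome biogenesis had 7 of 35 lower (20%) and 0 higher (median -0.15), after 16 rises in siNS and 1 in oeWDR76 (45.7% and 2.86%, against 15.1% and 0.471% of all tested genes). That count fell to between 1 and 4 without any 1 library except siNS/Erastin replicate 2. CRL4 ligase genes and LSH partners, the complexes of the proteins under study, had 5 of 35 higher (14.3%) and 3 lower (8.57%). Hypoxia targets had 4 of 29 higher (13.8%) and 3 lower (10.3%). With quantile normalization 5 were lower in each of these lists. The respiratory chain had 4 of 46 higher (8.7%) and 0 lower, and proteasome subunits 1 of 31 lower (3.23%) and 0 higher. Ribosomal proteins had 2 of 53 lower (3.77%) and 0 higher. The lower count was 0 or 1 without any 1 library, and 6 or 8 with the GC and length correction without and with a replicate block. Autophagy and lysosome genes had 3 of 39 higher (7.69%) and 2 lower (5.13%). The higher count was 0 without oeWDR76 replicate 2 and 1 without any of the others but siNS replicate 2 and oeWDR76 replicate 1. The lower count ran from 1 to 5 over the alternatives. With no filter on low values the 6 p53 targets and 5 YAP targets fell to 3, the 6 matrix genes to 2 and the 7 immediate early genes to 4, and quantile normalization left 3 matrix genes. Left-out libraries moved these counts by over 1.5 times: the 6 p53 targets fell to 3 without siNS replicate 2, oeWDR76 replicate 1 or 2, or oeWDR76/Erastin replicate 2, and the 6 matrix genes to 2 or 3 without siNS replicate 1, siNS/Erastin replicate 2, oeWDR76 replicate 1 or 2, or oeWDR76/Erastin replicate 1. The 5 YAP targets fell to 3 without siNS replicate 2, siNS/Erastin replicate 1, oeWDR76 replicate 2, or oeWDR76/Erastin replicate 1 or 2, and the 5 CRL4 and LSH genes to 2 or 3 without any library but siNS/Erastin replicate 2 and oeWDR76/Erastin replicate 2. The 7 lower immediate early genes fell to between 2 and 4 without siNS replicate 2, siNS/Erastin replicate 1, oeWDR76 replicate 1 or oeWDR76/Erastin replicate 2, and the 4 higher ones to 2 without siNS replicate 1, oeWDR76 replicate 1 or 2, or oeWDR76/Erastin replicate 1. The 3 lower CRL4 and LSH genes fell to 1 without siNS replicate 1, siNS/Erastin replicate 1, oeWDR76 replicate 2, or oeWDR76/Erastin replicate 1 or 2. The 3 lower p53 targets became 5 without siNS/Erastin replicate 2. The 1 proteasome call was lost without siNS replicate 1, siNS/Erastin replicate 2, oeWDR76 replicate 2 or oeWDR76/Erastin replicate 1. The 4 respiratory chain genes fell to 2 without siNS replicate 2, oeWDR76 replicate 1 or 2, or oeWDR76/Erastin replicate 2, and rose to 7 to 9 with a replicate block, the GC and length correction, a filter of 5 FPKM or only the 8 libraries.

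**Figure D5:**
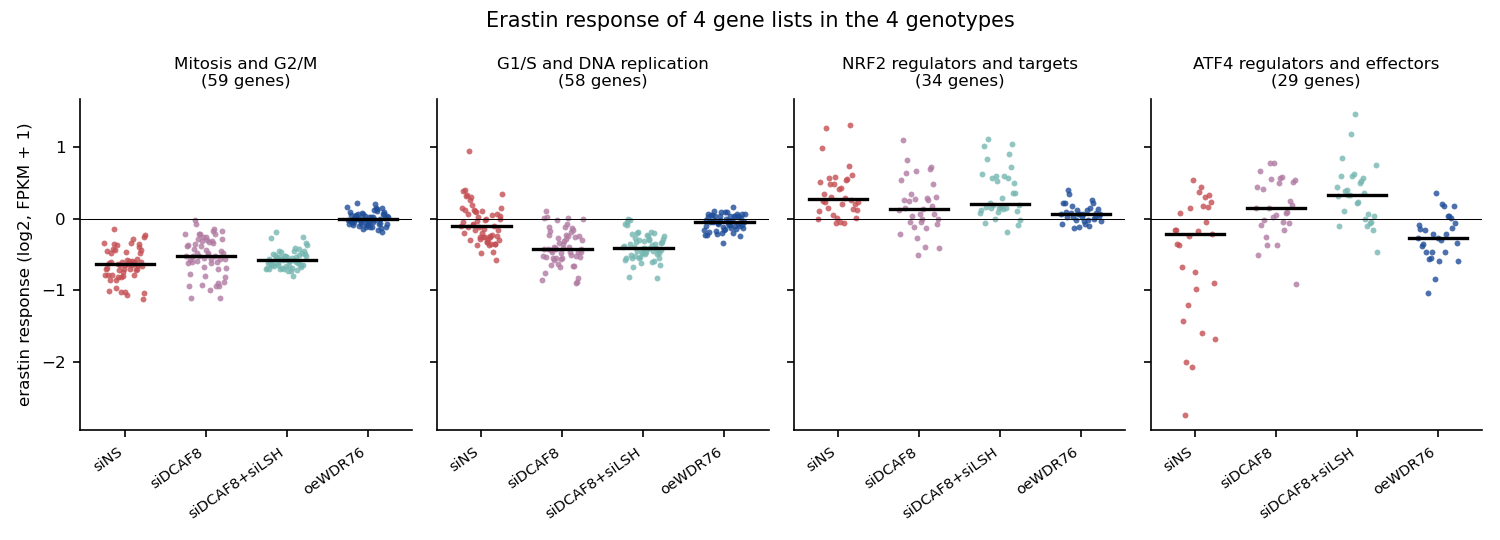
Erastin response (log2 change of FPKM + 1) of each tested gene (points) of 4 lists in the 4 genotypes siNS, siDCAF8, siDCAF8+siLSH and oeWDR76, with the median of each list as a black line. The mitotic medians are -0.64, -0.52, -0.58 and -0.01, and the ATF4 medians -0.22, 0.15, 0.34 and -0.27.

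Whether the oeWDR76 response also differed from that of other perturbed cells was tested against siDCAF8 and siDCAF8+siLSH, comparisons added after the data were seen, which share the oeWDR76 libraries with the one above. Against siDCAF8 the responses differed at 1583 genes, 1014 higher in oeWDR76 (9.01%) and 569 lower (5.05%), and against siDCAF8+siLSH at 1085 genes, 552 higher (4.9%) and 533 lower (4.73%). Mitotic genes fell in both: erastin lowered 49 of 59 in siDCAF8 (22.5% of all genes) and 58 in siDCAF8+siLSH (9.54%), and raised 0 and 0 (18.3% and 10.6% of all genes). The difference from oeWDR76 was called at 44 and 54 of them, all higher in oeWDR76, with medians of 0.49 and 0.56. KIF20A, for example, differed by 0.77 and 0.54 (adjusted p = 8.91e-05 and 0.00176). G1/S and replication genes, mixed against siNS, fell in 45 and 48 of 58 cases in these 2 genotypes, and 30 and 27 were higher in oeWDR76 by the difference, with 0 and 0 lower.

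For the ATF4 list the direction depended on the genotype that oeWDR76 was set against. Erastin raised 13 and 15 of 29 members in siDCAF8 and siDCAF8+siLSH (44.8% and 51.7%, against 18.3% and 10.6% of all genes) and lowered 4 and 1. The response in oeWDR76 was lower than theirs at 16 and 17 members and higher at 0 and 1 (medians -0.41 and -0.71). The lower ones are 55.2% and 58.6%, against 5.05% and 4.73% of all genes. CHAC1, less lowered in oeWDR76 than in siNS, responded lower there than in siDCAF8 (-0.79, adjusted p = 0.016) and siDCAF8+siLSH (-1.44, adjusted p = 0.000485). ASNS, with no called difference from siNS, differed by -1.69 and -0.96 (adjusted p = 5.81e-05 and 0.00447). SLC7A11 rose in siDCAF8 (0.90) and siDCAF8+siLSH (0.77), and its responses differed by -1.28 and -1.15 (adjusted p = 0.00153 and 0.0054). NRF2 list members were lower in oeWDR76 at 7 and 11 of 34 (20.6% and 32.4%) and higher at 2 and 0. HMOX1 rose by 1.90 in siDCAF8 and 4.34 in siDCAF8+siLSH, with differences of -1.50 and -3.95 (adjusted p = 0.0261 and 6.83e-05), so its smaller response in oeWDR76 was called against all 3 genotypes. In each of these comparisons taken singly, most of the 35 heat shock list members were not called. Against siNS 9 were lower and 0 higher. Against these genotypes 7 and 6 were higher in oeWDR76 (20% and 17.1%, against 9.01% and 4.9% of all genes) and 1 and 1 lower (medians 0.06 and 0.22). The difference between these counts was not tested, and HSPH1 differed by 0.09 and 0.12, neither called (adjusted p = 0.568 and 0.421).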

How the data were processed

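RNA of 16 HT-1080 libraries in 8 groups of 2 was measured by RNA-seq (Smart-seq v4 and NEBNext Ultra DNA libraries on BGISEQ500, per the labels' protocols). The values are FPKM per gene as the authors deposited them, rounded to 2 decimals, and the submitters' processing notes name StringTie and GRCh38; the version, aligner, annotation release and depth were not given in the sources used here, so no counting interval was computed. Of 24107 entries 17552 had values, and 28 symbols that had turned into dates were restored.

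Genes averaging 1 FPKM or more across all 16 libraries, 11260 in number, were fitted as log2(FPKM + 1) with 8 group means in limma 3.58.1 (R 4.3.3), with a mean-variance trend, 8 residual and 8.57 prior degrees of freedom, and Benjamini-Hochberg adjustment within each contrast over all tested genes; a call has an adjusted p under 0.05. Fitting all 16 libraries assumes 1 spread for all groups. Tested on simulated data (20 sets of the interaction contrast over the 11260 genes, 200 of them changed), the fit recovered 60.9% of genes changed by 0.5 and 96.2% of those changed by 1 (log2), and 4.8% of its calls were false. The simulated noise was independent and normal with each gene's fitted spread, so a false share near 0.05 follows from the adjustment. Technical replicates, shared batches and rounding were not simulated. A pseudocount of 1 shrinks the fold of genes near 1 FPKM.

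Named genes are the 3 targeted genes, the 15 called genes with the largest difference in each direction, genes called in opposite directions, and for each list at most 4 called members, those of lowest p (the 2 lowest where none was called), of which near-identical copies, readthrough transcripts and some list members are not described; those chosen after their values were seen are marked. The comparison and the gene lists were chosen with earlier results of these data known, and the comparisons with siDCAF8 and siDCAF8+siLSH were added to the planned ones. Promoter sequences are RefSeq's for GRCh38.p14, matched by gene identifier or symbol. Alternatives were another pseudocount, other filters and scalings, a replicate block, a GC and length correction, a fit of 8 libraries and leaving out each library.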

Additional observations from a re-analysis of the deposited data

Results flagged for a closer look

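The difference between genotypes in their response to erastin was tested directly and met at many genes: 1593 between oeWDR76 and siNS, 1583 between oeWDR76 and siDCAF8, and 1085 between oeWDR76 and siDCAF8+siLSH, comparisons that share the oeWDR76 libraries. For 5 genes erastin was called in opposite directions in siNS and oeWDR76. TNFAIP3 (difference -0.89), NDRG1 (-0.90), RGS3 (-0.71) and PARP14 (-0.54, all log2) rose in the 2 siNS/Erastin libraries and fell in the 2 oeWDR76/Erastin libraries. ALG1L2 fell in siNS and rose in oeWDR76 (difference 1.18), with reads that may be shared with related copies. Untreated levels of TNFAIP3, NDRG1 and PARP14 were higher in oeWDR76 than in siNS in all libraries, and the part of these levels in the opposite changes was not tested.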

How the results depend on the processing

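The count of genes whose response differed between oeWDR76 and siNS was 1593 as reported, 1559 with a pseudocount of 0.1, 1201 with no filter, 1494 with a filter of 5 FPKM, 1571 with median-ratio scaling, 1641 with quantile normalization, 1919 with only the 8 libraries compared and 1928 with GC content and length as a correction. Leaving out 1 library gave 906 to 1313 genes (the lowest without oeWDR76 replicate 2), against 2796 to 4077 of 4223 for erastin in siNS and 27 to 148 of 163 for erastin in oeWDR76. The last count was 84 with no filter and 269 with only the 8 libraries compared. All 1593 genes kept their sign under every alternative in which they were tested. They were chosen by their call in the same libraries, so a kept sign is no separate check. Of them 1436 kept their call with the GC and length correction, 1368 with median-ratio scaling and 1049 with no filter. With the replicate number as a block the difference was called at 1635 genes, 1548 of them among the 1593, and with block and correction together at 1927; same-numbered libraries of the 4 groups had deviations correlated between -0.18 and 0.22, so the numbers are not taken to pair the samples. Since the numbers of siNS and siNS/Erastin correlated negatively, a block with the siNS/Erastin numbers crossed, added after seeing the data, was run and called 4204 genes for erastin in siNS, against 4286 with the block as numbered. The median difference of the autophagy and lysosome list, 0.042, ran from -0.034 (without oeWDR76 replicate 2) to 0.052 when 1 library was left out. With 2 libraries a group and values near 0 rounded, differences of genes under about 5 FPKM are the least certain: 8.6% of genes at 1 to 5 FPKM were called, against 15.1% at 5 to 20 FPKM. No empty-vector library and no batch label accompany oeWDR76, so the vector, the absence of siRNA and any batch cannot be told apart from WDR76 in these comparisons.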
